A study of Mus musculus with 2 samples.

Results

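The genes described are 9 costimulators and ligands of T cells: the receptors Tnfrsf4 (OX40), Tnfrsf9 (4-1BB), Tnfrsf18 (GITR), Tnfrsf1b (TNF receptor 2) and Icos, and the ligands Cd40lg, Tnfsf8 (CD30 ligand), Tnfsf10 (TRAIL) and Tnfsf11 (RANKL). They were taken by name from the 31053 genes of the deposited matrices, and all 9 were detected in both libraries. Icos is a CD28 family member and not part of the TNF superfamily, and is kept here as a costimulatory receptor of the same cells. The cells came from intracranial tumours of GL261, a glioma line of C57BL/6 origin, in C57BL/6 mice that drank water with metformin or control water (DW). Metformin is a biguanide drug that inhibits mitochondrial complex I. On day 20 the tumour region was dissected, cells with high CD45, a pan-leukocyte surface protein, were sorted, and each group was sequenced as 1 library of the 10x Genomics 3' v3 chemistry. The labels give neither the number of mice behind a library nor their age or the metformin dose.

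With 1 library per group no test was possible, no difference has a replicate check, and every interval below covers counting error only. The metformin library held 5473 barcodes with 47142356 unique molecular identifiers (UMIs, counted molecules), and the control water library 6174 barcodes with 49651404 UMIs. After filtering, 4570 metformin and 5376 control cells were retained, with median UMIs per cell of 7925.5 and 7296.5. Only 9 barcodes were shared by the libraries, 8 of them retained. A UMI of at least 1 of the 9 genes was found in 3452 metformin and 3861 control cells. Cell classes were rebuilt from the counts without the 9 genes among the clustering genes, and are meant as "like" the named type, a word left out from here on. Of the 27 classes, 14 held at least 50 cells in each library, 8 of them T or natural killer (NK) cells and 6 myeloid. Levels are CPM values, the UMIs of a gene summed over a class per 1000000 UMIs of that class. They compare 1 gene between classes or libraries, not genes with each other, and fewer cells of a type and less RNA per cell cannot be told apart in them.

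TNF receptor superfamily members on T cells recruit TRAF adaptors when their trimeric ligands bind, and so switch on NF-kB and survival signals after antigen recognition. Tnfrsf4, Tnfrsf9 and Tnfrsf18 are induced by T cell activation and are carried at rest by regulatory T cells, and Tnfrsf1b, which binds TNF and lymphotoxin alpha, supports regulatory T cells and is also used by myeloid cells. Icos binds Icosl and helps CD4 T cells to persist and to secrete cytokines. Among the ligands, Cd40lg licenses antigen-presenting cells through CD40, Tnfsf8 binds CD30, Tnfsf11 acts through RANK on dendritic cells and osteoclasts, and Tnfsf10 triggers apoptosis through death receptors.

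Of the 9 genes, 5 lie on mouse chromosome 4. In GENCODE annotation of GRCm38, Tnfrsf4 (ENSMUSG00000029075) spans chr4:156013843-156016612 on the plus strand and its neighbour Tnfrsf18 (ENSMUSG00000041954) spans chr4:156026164-156028895 on the plus strand, 9551 bases further on. Tnfrsf9 (ENSMUSG00000028965) spans chr4:150914562-150946102 on the plus strand. The promoters of these 3 receptors are shown because all 3 genes had their highest level in regulatory T cells in both libraries. Each is 250 bases before to 50 after a RefSeq transcription start, read 5' to 3' on the gene's strand, from GRCm38.p6. RefSeq promoter windows were found for 7 of the 9 genes. Tnfrsf9 has 2 starts, of which the downstream one, with the most motif matches, is shown, and the RefSeq start of Tnfrsf4 lies upstream of the GENCODE one.
Tnfrsf9, chr4:150927749-150928048, plus strand: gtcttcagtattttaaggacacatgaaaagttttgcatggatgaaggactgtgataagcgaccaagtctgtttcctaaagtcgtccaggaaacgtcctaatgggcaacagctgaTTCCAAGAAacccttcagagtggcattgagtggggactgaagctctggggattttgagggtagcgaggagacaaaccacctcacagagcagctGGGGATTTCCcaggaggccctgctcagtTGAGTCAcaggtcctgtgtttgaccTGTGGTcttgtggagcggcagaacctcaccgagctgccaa
Tnfrsf4, chr4:156013445-156013744, plus strand: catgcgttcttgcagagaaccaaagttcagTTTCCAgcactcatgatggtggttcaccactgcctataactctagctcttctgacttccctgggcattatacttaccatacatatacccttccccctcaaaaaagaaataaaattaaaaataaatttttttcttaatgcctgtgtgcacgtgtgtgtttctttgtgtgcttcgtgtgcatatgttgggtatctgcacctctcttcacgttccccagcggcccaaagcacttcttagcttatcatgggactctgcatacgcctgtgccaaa
Tnfrsf18, chr4:156026072-156026371, plus strand: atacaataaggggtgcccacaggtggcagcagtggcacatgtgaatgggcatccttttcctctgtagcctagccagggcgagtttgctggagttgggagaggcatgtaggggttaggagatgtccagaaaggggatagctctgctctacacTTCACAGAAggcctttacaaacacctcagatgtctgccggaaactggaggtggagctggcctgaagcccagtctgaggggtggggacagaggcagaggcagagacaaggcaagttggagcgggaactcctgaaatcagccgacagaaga
Capitals mark matches, on either strand, to the NF-kB motif (GGG, any 2 bases, then TTTCC), the AP-1 motif TGANTCA, the NFAT core TGGAAA, the STAT motif TTCNNNGAA and the RUNX motif TGTGGT, where N is any base. The Tnfrsf9 window held an NF-kB match at positions -43 to -34 from the start, an AP-1 match at -15 to -9, a STAT match at -136 to -128 and a RUNX match at 11 to 16. The Tnfrsf4 window held an NFAT core match at -220 to -215, and the Tnfrsf18 window a STAT match at -99 to -91. Of 32851 RefSeq mouse promoter windows of this length, 1.63% held the NF-kB motif, 7.81% the AP-1 motif, 21.4% the NFAT core, 8.30% the STAT motif and 16.8% the RUNX motif. Of the other windows, that of Tnfrsf1b held a STAT match, those of Tnfsf10 and the upstream Tnfrsf9 start an NFAT core match, and those of Tnfsf8 and Tnfsf11 no match to these letters. A match describes letters in a window and shows no binding.

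Regulatory T cells (289 metformin and 304 control cells, led by Foxp3) carried Tnfrsf4, Tnfrsf18, Tnfrsf9 and Icos at the highest levels of the 14 classes. Tnfrsf4 stood at 1719.9 CPM in metformin regulatory T cells and 1700.6 CPM in control regulatory T cells (4130 and 3645 UMIs), a ratio of 1.01 (95% interval 0.967 to 1.06). CD4 conventional T cells came next with 811 CPM in metformin and 738 CPM in control cells, and every myeloid class of at least 50 cells in each library stayed at or below 140.2 CPM in metformin and 73.2 CPM in control cells. Regulatory T cells alone held 50.4% of the metformin library's Tnfrsf4 UMIs and 42.4% of the control library's.

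Tnfrsf18 reached 1069 CPM in metformin and 1116 CPM in control regulatory T cells (ratio 0.957, 0.905 to 1.01). Other lymphoid classes carried it too. NK cells stood at 179 CPM in metformin and 176 CPM in control, Klra1/Klra6 T cells at 161 and 203 CPM, and CD8 T cells at 131 and 155 CPM. NK, Klra1/Klra6 T and Tcf7 CD4 T cells overlapped in their intervals with a neighbour in this order in both libraries, so their ranks are not separated beyond counting error.

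Tnfrsf9 was at 562 CPM in metformin and 663 CPM in control regulatory T cells (1349 and 1422 UMIs), a ratio of 0.847 (0.785 to 0.913). Its following ranks differed between the libraries: CD4 conventional T cells were second in metformin (176 CPM) and cycling T cells second in control (275 CPM). NK cells, where 4-1BB is also induced by activation, held 83.9 CPM in metformin and 121 CPM in control.

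Icos was at 981 CPM in metformin and 849 CPM in control regulatory T cells (2356 and 1819 UMIs), with a ratio of 1.16 (1.09 to 1.23). Tnfrsf1b was the exception among the receptors, highest in monocytes at 294 CPM in metformin and 221 CPM in control. Regulatory T cells followed at 232 CPM in metformin and 216 CPM in control, with intervals that overlapped those of monocytes in both libraries. Macrophages came next at 123 CPM in metformin and 134 CPM in control, and held more Tnfrsf1b UMIs than any other class, 614 in metformin and 563 in control.

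In single cells thinned to 3821 UMIs each, regulatory T cells also had the highest shares of cells with Tnfrsf4, Tnfrsf18, Tnfrsf9 and Icos among the 14 classes. Below them the order of shares differed in places from the order of levels: Tnfrsf18 was seen in 37.8% of metformin cycling T cells and 48.6% of metformin NK cells, although its CPM was higher in cycling T cells. For Tnfrsf1b in control, 56.4% of regulatory T cells and 55.6% of monocytes had a UMI. A Tnfrsf4 UMI was found in 93.2% of metformin and 94.0% of control regulatory T cells (exact intervals 89.1 to 96.0% and 90.02 to 96.8%; 93.1% and 93.4% before thinning), and a Tnfrsf18 UMI in 94.9% and 94.5%. Icos was detected in 87.2% of metformin regulatory T cells and 79.4% of control ones (82.2 to 91.2% and 73.4 to 84.5%; 91.0% and 85.9% before thinning), and Tnfrsf9 in 63.2% and 67.4%. B cells, a class that should not carry Tnfrsf4, Tnfrsf9 or Icos, give a background: 1.44% of metformin and 3.41% of control B cells had a Tnfrsf4 UMI, 1.44% and 0.853% an Icos UMI, 1.44% and 1.71% a Tnfrsf9 UMI, and 7.21% and 7.85% a Tnfrsf18 UMI. Before thinning, median UMIs were 6709 in metformin and 5738.5 in control regulatory T cells, and 5164.5 and 5624 in B cells; thinning left out the shallower cells, 55 and 86 regulatory T cells and 34 and 67 B cells.

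Most single regulatory T cells had UMIs of several receptors. The high share of each receptor in this class raises that number by itself. Whether the receptors met more often than their single shares would give was not tested. At least 3 of the 5 receptors had a UMI in 92.7% of metformin and 88.5% of control regulatory T cells, against 49.7% and 59.5% of CD4 conventional T cells, 9.24% and 12.9% of CD8 T cells and 4.29% and 5.62% of NK cells.

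**Figure D1:**
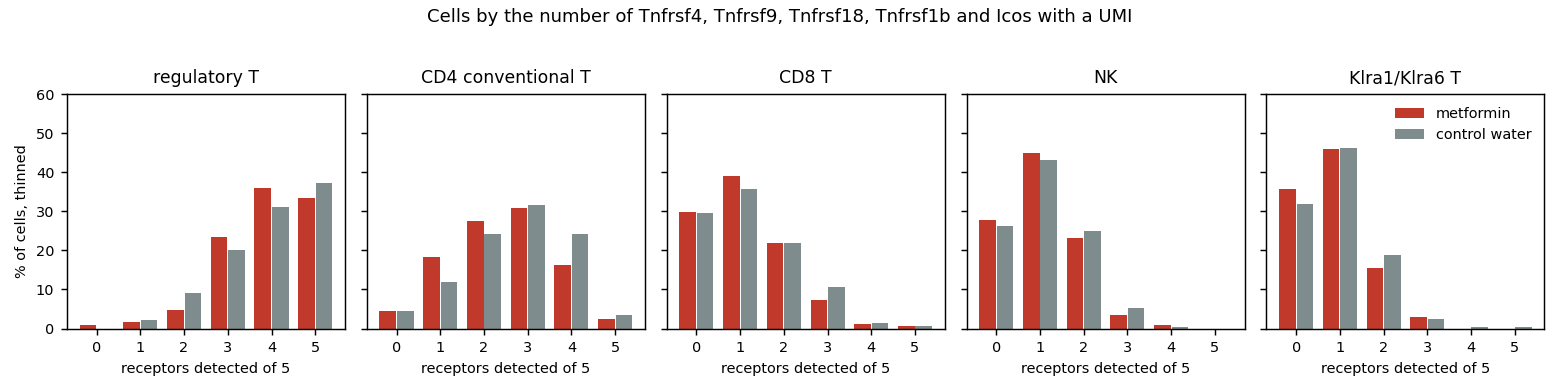
Share of cells (%, each cell thinned to 3821 UMIs, y axis from 0) by the number of the 5 receptors Tnfrsf4, Tnfrsf9, Tnfrsf18, Tnfrsf1b and Icos with a UMI (x axis), for 5 classes, with metformin in red left of control water in grey. Regulatory T cells sit mostly at 4 or 5 receptors, CD4 conventional T cells at 1 to 4, and CD8 T, NK and Klra1/Klra6 T cells at 0 to 2.

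The ligands had another centre, the CD4 conventional T cells (206 metformin and 399 control cells). Tnfsf8 stood there at 277 CPM in metformin and 306 CPM in control (669 and 1229 UMIs, ratio 0.905, 0.822 to 0.995). Tnfsf11 reached 222 CPM in metformin and 198 CPM in control (536 and 795 UMIs, ratio 1.12, 1.003 to 1.25). Cd40lg was at 97.4 CPM in metformin and 91.7 CPM in control (235 and 368 UMIs, ratio 1.06, 0.897 to 1.25). These cells held 67.4% of the metformin library's Tnfsf11 UMIs and 66.4% of the control library's, and more than any other class of the Cd40lg and Tnfsf8 UMIs. Regulatory T cells, in contrast, had 5 Cd40lg UMIs in metformin and 10 in control, and NK cells 2 and 0.

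Most single CD4 conventional T cells had a UMI of a ligand. After thinning, at least 1 of the 4 ligands was seen in all but 20.8% of metformin and 22.3% of control CD4 conventional T cells, whereas 77.4% and 75.2% of regulatory T cells had none. Cd40lg was detected in 33.5% of metformin and 26.7% of control CD4 conventional T cells, Tnfsf8 in 38.1% and 41.0%, and Tnfsf11 in 40.1% and 39.7% (54.4 and 46.4%, 52.4 and 52.4%, and 59.7 and 61.2% before thinning, which left out 9 metformin and 36 control cells), against 0.481% and 0%, 0.481% and 1.37%, and 0% and 0.341% of B cells. With a floor of 3 counts, 0 of 586 thinned control B cells allows a share of B cells with a UMI of up to 0.512%, and 0 of 208 metformin ones of up to 1.44%. Tnfsf11 was found in 50.7% of Tnfsf8-positive and 33.6% of Tnfsf8-negative metformin CD4 conventional T cells, and in 49.0% and 33.2% of the control ones. Both genes were higher in the Ccl1-led cluster of this class, described below, and its part in these shares was not tested.

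Tnfsf10 had no single centre among lymphocytes. CD4 conventional T cells had 63.8 CPM in metformin and 78.8 CPM in control, CD8 T cells 59.6 and 73.2 CPM, and regulatory T cells 42.9 and 54.1 CPM. The intervals of CD4 conventional and CD8 T cells overlapped in both libraries. A small class of innate lymphoid cells type 1 (28 metformin and 45 control cells) stood higher, at 126 CPM in metformin and 149 CPM in control.

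**Figure D2:**
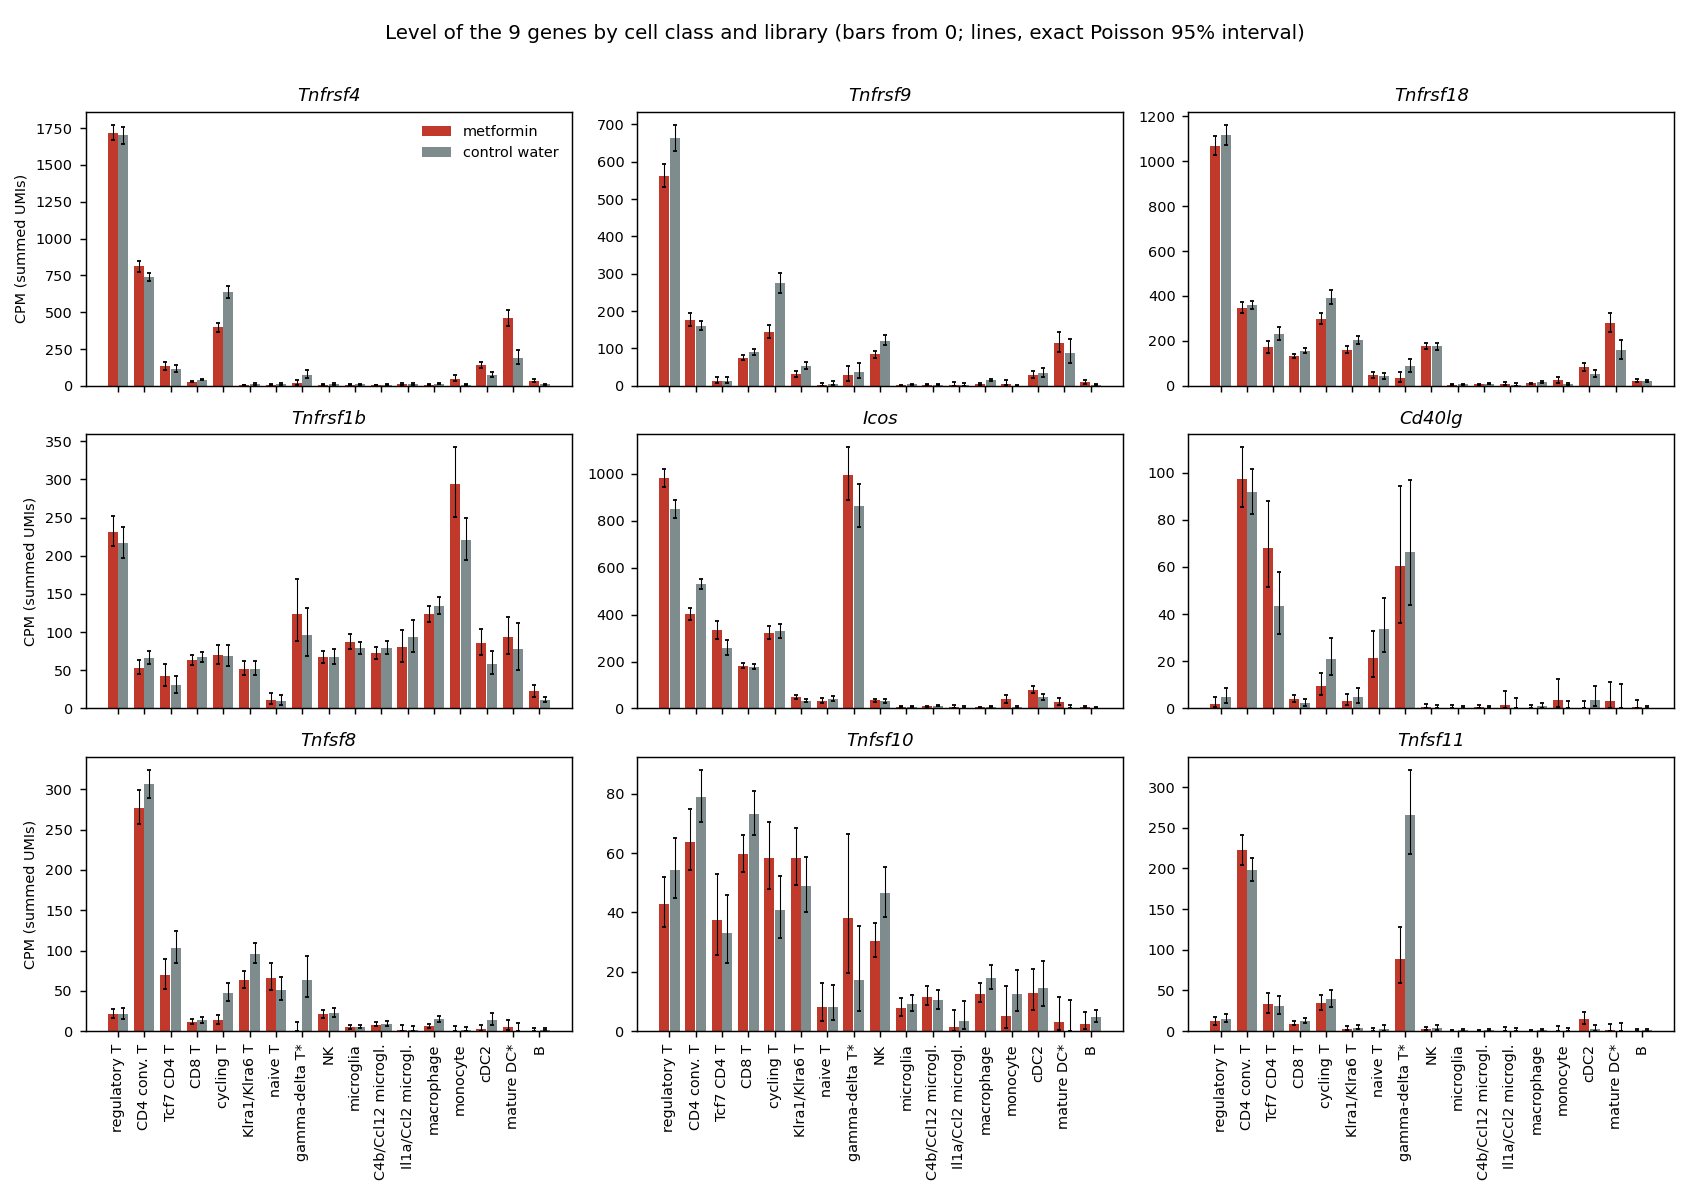
Level of each gene (summed UMIs as CPM, y axis from 0) in 17 cell classes (x axis), metformin in red left of control water in grey, with exact Poisson 95% intervals; classes with a star held fewer than 50 cells in 1 library. The receptors Tnfrsf4, Tnfrsf9 and Tnfrsf18 peak in regulatory T cells, Tnfrsf1b in monocytes and regulatory T cells, and the ligands Cd40lg and Tnfsf8 in CD4 conventional T cells. Icos peaks in regulatory T cells and in the gamma-delta T class, a mixed class whose cells with few Trdc UMIs had the higher Icos level.

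The comparison of metformin with control water asks whether these levels differed within a class. A gene was counted as higher or lower at a ratio of at least 1.5 or at most its inverse, with at least 40 UMIs over both libraries in the class. Of 126 pairs of gene and class, 86 had enough UMIs, 4 were higher in metformin and 14 lower, and 16 of these 18 had an interval without 1. Over all genes, 3.54% of 100625 pairs with enough UMIs in the same classes were higher and 5.06% lower, so lower pairs were also the more frequent there. These are differences between 2 libraries. A lower level of a gene in a class cannot be told apart from a class that holds fewer of the cells that express it.

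In regulatory T cells 0 of 8 measurable genes passed the 1.5-fold threshold, where 2.6% of all genes were higher and 5.45% lower. In CD8 T cells (577 metformin and 593 control cells) 0 of 8 passed, beside 2.32% of all genes higher and 3.18% lower. Tnfrsf4 came closest, with 28.1 CPM in metformin and 42.0 CPM in control CD8 T cells (171 and 223 UMIs, ratio 0.668, 0.544 to 0.819), while Icos was at 182 and 177 CPM (ratio 1.03, 0.942 to 1.12). For Tnfrsf9, 75.4 CPM in metformin and 90.5 CPM in control CD8 T cells gave a ratio of 0.833, but 1 metformin cell held 34.4% of the UMIs, and without the richest cell of each library the ratio was 0.579. In CD4 conventional T cells 0 of 9 passed, beside 1.86% of all genes higher and 6.95% lower. There Icos had the ratio farthest from 1, at 404 CPM in metformin and 530 CPM in control (974 and 2128 UMIs, ratio 0.761, 0.705 to 0.821), and thinned Icos shares were 61.9% in metformin and 75.2% in control (54.8 to 68.7% and 70.4 to 79.6%), beside 86.4% and 89.97% before thinning.

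In the Tcf7 CD4 T cluster (154 metformin and 185 control cells, led by the naive and memory gene Tcf7) 1 of 8 measurable genes was past the threshold, beside 4.14% of all genes higher and 4.92% lower. Cd40lg was higher, at 67.9 CPM in metformin and 43.4 CPM in control (58 and 46 UMIs, ratio 1.57, 1.04 to 2.36). The thinned shares were 20.7% in metformin and 13.1% in control, with intervals of 13.8 to 28.97% and 8.08 to 19.7% that overlapped (24.7% and 19.5% before thinning, which left out 33 metformin and 40 control cells). The Cd40lg ratio was under the threshold in 3 of 8 alternatives, down to 1.14. In naive T cells Cd40lg was lower instead, at 21.6 CPM in metformin and 33.8 CPM in control (21 and 37 UMIs, ratio 0.638, 0.355 to 1.12), the only 1 of 4 measurable genes past the threshold, beside 3.63% of all genes higher and 5.66% lower.

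Klra1/Klra6 T cells (284 metformin and 267 control cells) are T cells whose leading genes included Ly49 receptor genes and Trdc, a delta chain gene. Of their 7 measurable genes 3 were lower in metformin and 0 higher, beside 2.81% of all genes higher and 4.92% lower. Tnfsf8 was at 63.5 CPM in metformin and 96.3 CPM in control (158 and 221 UMIs, ratio 0.659, 0.534 to 0.812), Tnfrsf9 at 31.3 and 53.2 CPM (78 and 122 UMIs, ratio 0.590, 0.438 to 0.790) and Tnfrsf4 at 4.82 and 12.2 CPM (12 and 28 UMIs, ratio 0.395). Of 9 alternatives, Tnfrsf9 stayed past the threshold in all and Tnfsf8 in 4. Tnfrsf18 differed the same way without passing the threshold, at 161 CPM in metformin and 203 CPM in control (ratio 0.790), while Icos stood at 47.8 and 33.5 CPM (119 and 77 UMIs, ratio 1.42, 1.06 to 1.92). The class has 2 clusters, and the Klra6-led one (220 metformin and 238 control cells) had Tnfrsf9 at 29.8 CPM in metformin and 59.8 CPM in control. The thinned share of cells with Tnfrsf4, 1.81% in metformin and 4.49% in control (4.23% and 7.12% before thinning), is close to that of B cells and is not read as expression.

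NK cells (555 metformin and 383 control cells) had 1 of 7 measurable genes past the threshold, beside 2.74% of all genes higher and 2.87% lower. Tnfsf10, through which NK cells can kill, was lower at 30.4 CPM in metformin and 46.4 CPM in control (115 and 122 UMIs, ratio 0.656, 0.504 to 0.853), and was seen in 8.98% of metformin and 15.1% of control cells after thinning (6.60 to 11.9% and 11.4 to 19.4%), against 0.962% and 1.54% of B cells. Before thinning, which left out 65 metformin and 45 control NK cells, these shares were 14.2% and 19.8%. Tnfrsf9 was close to the threshold at a ratio of 0.694 (0.592 to 0.813), and Tnfrsf18 was at 1.02 (0.902 to 1.15). The Tnfsf10 ratio was below 1 in the 10 alternatives computed for this class, between 0.566 and 0.782, and past the threshold in 4 of them.

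**Figure D3:**
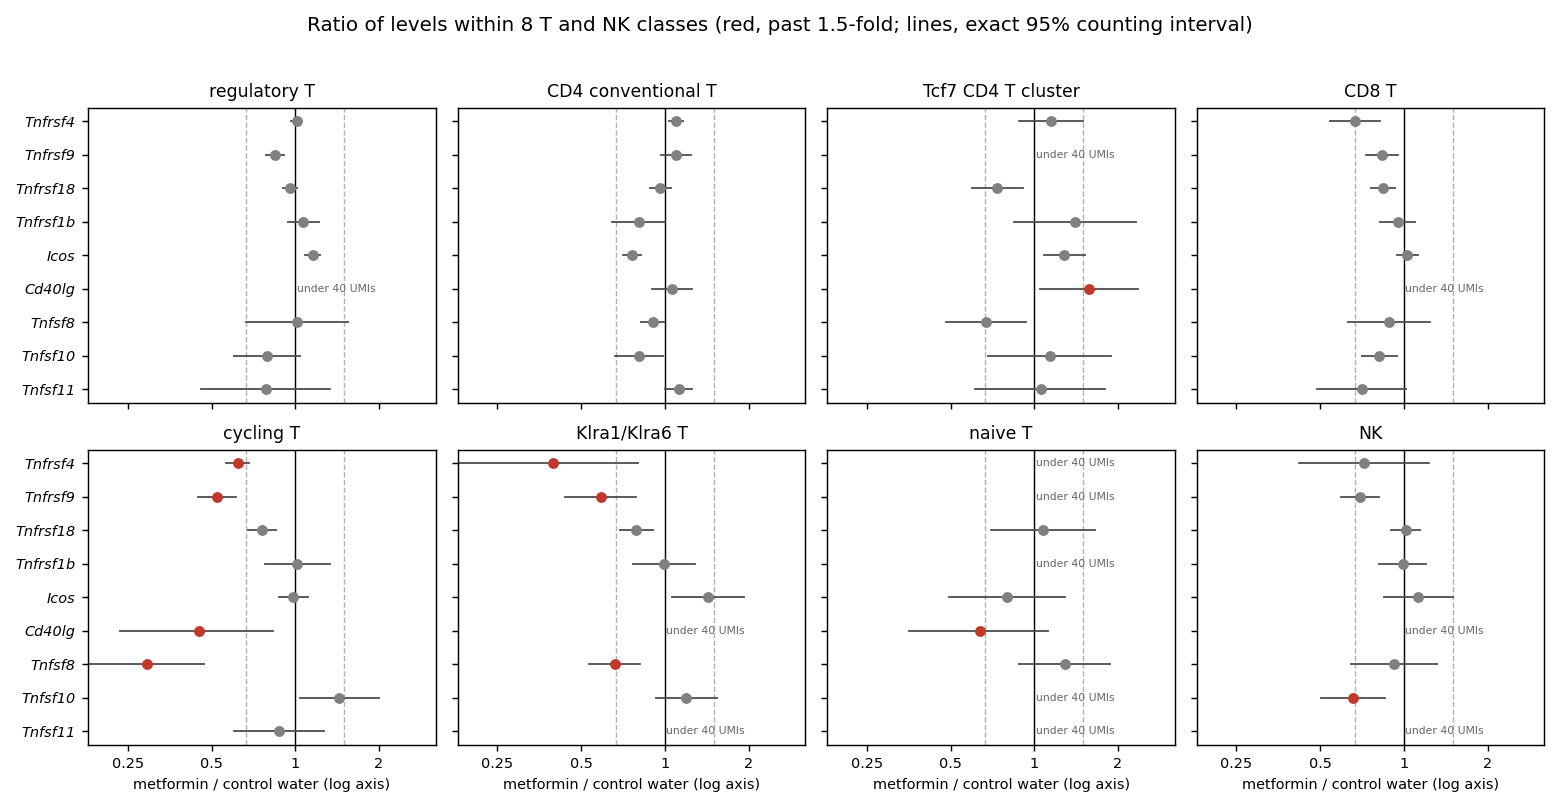
Ratio of levels, metformin over control water (x axis, log scale), for each of the 9 genes (y axis) in 8 T and NK classes, with exact 95% counting intervals, dashed lines at the 1.5-fold threshold and red points past it. No point of regulatory T, CD4 conventional T or CD8 T cells is red, and cycling T cells and Klra1/Klra6 T cells have 4 and 3 red points, all below 1.

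Cycling T cells (76 metformin and 67 control cells) had the most genes past the threshold among T cells, 4 of 9, all lower in metformin, beside 5.62% of all genes higher and 8.03% lower. Tnfrsf4 was at 396 CPM in metformin and 639 CPM in control (713 and 972 UMIs, ratio 0.620, 0.562 to 0.684) and Tnfrsf9 at 144 and 275 CPM (259 and 419 UMIs, ratio 0.523). Tnfsf8 was at 13.9 and 47.3 CPM (25 and 72 UMIs, ratio 0.294) and Cd40lg at 9.44 and 21.02 CPM (17 and 32 UMIs, ratio 0.449). For Cd40lg, 1 metformin cell held 41.2% of the UMIs. The same clusters made up this class in both libraries, but in different proportions. A Hist1h2ae-led cluster rich in CD8 T markers held 50 metformin and 29 control cells, and an Mki67-led cluster rich in regulatory T markers held 26 and 38. The 4 CD8 T markers summed to 2651 CPM in metformin and 1778 CPM in control cycling T cells, and the 6 regulatory T markers to 987 and 1117 CPM.

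Within the Mki67-led cluster Tnfrsf4 was not lower but stood at 1185 CPM in metformin and 1022 CPM in control (680 and 912 UMIs, ratio 1.16, 1.048 to 1.28), and Tnfrsf18 at 737 and 566 CPM (ratio 1.30, 1.14 to 1.49) and Icos at 728 and 474 CPM (ratio 1.54, 1.34 to 1.76). Within the Hist1h2ae-led cluster Tnfrsf4 was at 26.9 CPM in metformin and 95.3 CPM in control (33 and 60 UMIs, ratio 0.282). When both clusters were given the same weight in each library, a choice made after seeing the data, the class ratio of Tnfrsf4 was 1.07 and that of Tnfrsf9 0.752, neither past the threshold. Tnfsf8 was below 1 in both clusters, at 0.494 (0.283 to 0.828) in the Mki67-led and 0.285 (0.0751 to 0.948) in the Hist1h2ae-led one.

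The clusters of CD4 conventional T cells also differed. The Ccl1-led cluster (112 metformin and 207 control cells), which also expressed Penk and Ifng, carried most of the Tnfsf8, at 376 CPM in metformin and 445 CPM in control, and Tnfsf11 at 284 and 248.9 CPM. The Cd4-led cluster (94 metformin and 192 control cells) had 103 CPM of Tnfsf8 in both libraries, and 114 CPM of Tnfsf11 in metformin and 124 CPM in control. For Tnfrsf4 the libraries differed in opposite directions, with 1108 CPM in metformin and 948 CPM in control in the Ccl1-led cluster (ratio 1.17, 1.10 to 1.25) and 287 and 431 CPM in the Cd4-led cluster (ratio 0.665, 0.574 to 0.770). Icos was lower in metformin in both, at a ratio of 0.870 (0.792 to 0.955) in the Ccl1-led and 0.579 (0.504 to 0.664) in the Cd4-led cluster. Markers of regulatory T cells were lower in metformin, as Icos was: the 6 markers summed to 736 CPM in metformin and 969 CPM in control CD4 conventional T cells, none at 0. Tnfrsf4 went the other way over the class (ratio 1.10) and in the Ccl1-led cluster. The part of these markers in the Icos and Tnfrsf4 values was not tested.

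Among CD8 T cells the Gramd3-led cluster (67 metformin and 60 control cells), which also had Nr4a2 and Gzmk among its leading genes, was richest in Icos, at 583 CPM in metformin and 393 CPM in control (318 and 183 UMIs, ratio 1.48, 1.23 to 1.79). Tnfrsf9 was concentrated in the Prf1-led cluster (20 metformin and 63 control cells, with Pdcd1 and Tox among its leading genes), at 200.2 CPM in metformin and 323 CPM in control, and in the Gzmc-led cluster (103 and 72 cells), at 200.04 and 186 CPM. However, 1 metformin cell held 158 of the 459 Tnfrsf9 UMIs of metformin CD8 T cells, and was not left out of the cluster values. The Prf1-led cluster did not hold it, since 44 Tnfrsf4 UMIs gave a higher level there, 226 CPM in metformin. Tnfrsf4 had 226 CPM in metformin and 79.9 CPM in control in the Prf1-led cluster (44 and 53 UMIs, ratio 2.83), and ratios of 0.455 to 0.763 in the other 4 clusters.

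**Figure D4:**
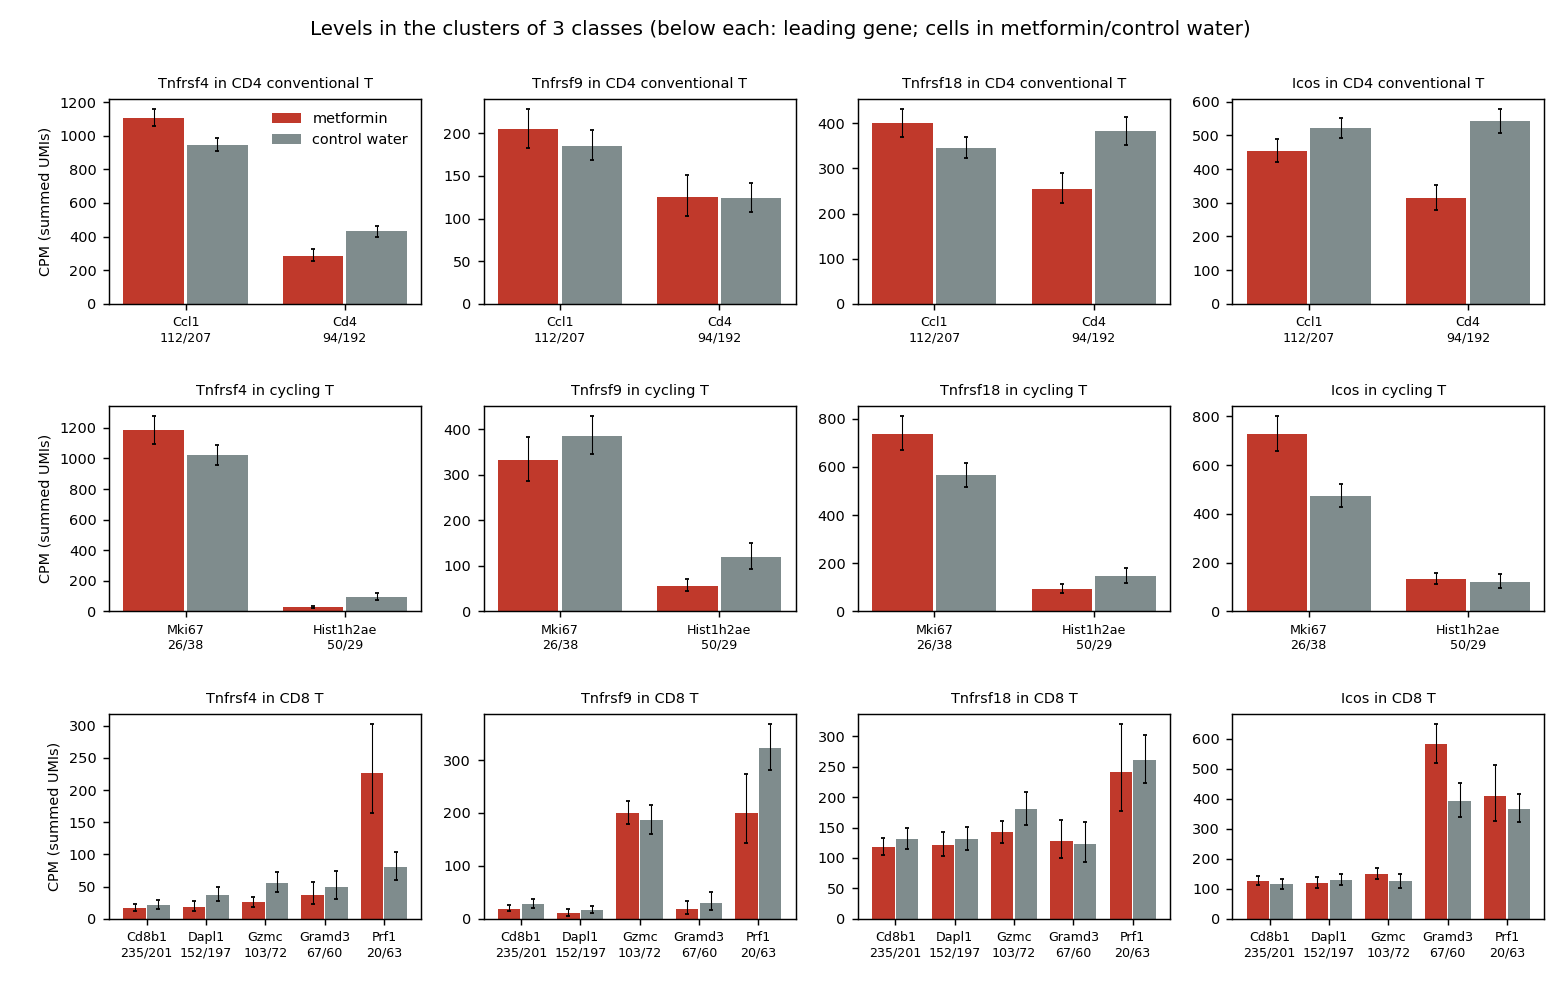
Levels of Tnfrsf4, Tnfrsf9, Tnfrsf18 and Icos (summed UMIs as CPM, y axes from 0) in the clusters of CD4 conventional, cycling and CD8 T cells, metformin in red left of control water in grey, with exact Poisson 95% intervals; below each pair are the leading gene and the cells in metformin and control water. Tnfrsf4 stands at 1185 CPM in metformin and 1022 CPM in control in the Mki67-led cycling cluster, and at 26.9 and 95.3 CPM in the Hist1h2ae-led one.

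The gamma-delta T class, the cell type named in the title of the series, was led by Il17a, Cd163l1 and Trdc and held 48 metformin and 61 control cells, too few for the 1.5-fold rule. Its Icos level was near that of regulatory T cells, at 996 CPM in metformin and 862 CPM in control (314 and 350 UMIs, ratio 1.16, 0.989 to 1.35). Tnfsf11 was at 88.8 CPM in metformin and 266 CPM in control (28 and 108 UMIs, ratio 0.334, 0.212 to 0.510), and Tnfsf8 had 0 UMIs in metformin and 26 in control. In cells gated by transcripts as gamma-delta T (120 metformin and 100 control cells) Icos was lower than in this class, at 179 and 203 CPM. The class was mixed: 32 metformin and 34 control cells had at least 2 UMIs of Trdc, the delta chain constant gene, and 16 and 27 did not. This split was made after the values were seen.

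Cells with at least 2 Trdc UMIs had Icos at 594 CPM in metformin and 631 CPM in control and Tnfsf11 at 80.6 and 104 CPM (16 and 22 UMIs), with 0 Cd40lg UMIs in either library. The Trdc-poor cells held all of the class's Cd40lg, 19 UMIs in metformin and 27 in control, and Icos at 1679.6 and 1111 CPM. They also held 12 of the metformin and 86 of the control Tnfsf11 UMIs, and 0 and 25 Tnfsf8 UMIs. Trac, the alpha chain constant gene, was at 35 UMIs in metformin and 116 in control in these cells, Cd4 at 4 and 28, and Cd163l1 at 0 and 3. A separate cluster of 15 cells led by Il17a with Cd4 was found in the control library alone and had 58 Icos, 13 Tnfsf11 and 11 Tnfsf8 UMIs, with 70 Cd4 and 0 Trdc UMIs.

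Among myeloid cells Tnfrsf4, Tnfrsf18 and Tnfrsf9 were highest in mature dendritic cells (70 metformin and 43 control cells, led by Cacnb3, Ccr7 and Ccl22), a class too small in control for the 1.5-fold rule. Tnfrsf4 stood at 460.1 CPM in metformin and 189 CPM in control (291 and 66 UMIs, ratio 2.43, 1.86 to 3.23), and was seen after thinning in 40 of 59 metformin and 19 of 38 control cells, with intervals of 54.4 to 79.4% and 33.4 to 66.6% that overlapped (74.3% and 60.5% before thinning). Tnfrsf18 was at 278 CPM in metformin and 158 CPM in control (ratio 1.77, 1.30 to 2.44), and Tnfrsf9 at 115 and 88.8 CPM (ratio 1.30, 0.843 to 2.05). The richest cell held 7.90% of the metformin and 12.1% of the control Tnfrsf4 UMIs. T cell genes were also higher in metformin in this class: the 6 T cell markers, none at 0, summed to 271 UMIs in metformin and 55 in control (429 and 158 CPM), and the 6 regulatory T markers to 137 and 46 UMIs (217 and 132 CPM). Icos had 17 UMIs in metformin and 1 in control, Cd3e 29 and 5, and Cd8a 28 and 2. The part of these in the Tnfrsf4 and Tnfrsf18 ratios was not tested.

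In the other myeloid classes, the TNF receptor Tnfrsf1b was the gene with a clear level and passed the threshold in none of the 6 classes with enough cells. It stood at 86.8 CPM in metformin and 79.2 CPM in control microglia, at 123 and 134 CPM in macrophages, and at 294 and 221 CPM in monocytes (ratio 1.33, 1.09 to 1.63). In monocytes the 6 T cell markers summed to 277 UMIs in metformin and 54 in control, and their part in that ratio was not tested. The genes past the threshold were instead those of T cells at low level. Macrophages had 4 of 7 measurable genes lower in metformin, beside 8.99% of all genes past the threshold in either direction: Tnfrsf9 (21 and 64 UMIs, ratio 0.277), Tnfsf8 (29 and 63 UMIs, ratio 0.389), Tnfrsf4 (39 and 62 UMIs, ratio 0.531) and Tnfrsf18 (56 and 78 UMIs, ratio 0.606). Thinned shares of macrophages with Tnfrsf4 were 1.27% in metformin and 3.69% in control (4.99% and 7.003% before thinning), near the 1.44% and 3.41% of B cells, and are read as background. Tnfrsf18 shares were 4.13% in metformin and 3.69% in control macrophages, not lower in metformin and below the 7.21% and 7.85% of B cells. Tnfsf8 shares were 2.22% and 2.46%, and Tnfrsf9 shares 0.952% and 2.15%. The 6 T cell markers, none at 0, summed to 146 CPM in metformin and 95.5 CPM in control macrophages, and their part in these ratios was not tested.

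Conventional dendritic cells type 2 (89 metformin and 83 control cells) had 3 of 5 measurable genes higher in metformin, beside 11.6% of all genes past the threshold in either direction. These were Tnfrsf4 (166 and 80 UMIs, ratio 1.92), Icos (94 and 53 UMIs, ratio 1.64) and Tnfrsf18 (99 and 58 UMIs, ratio 1.58). The richest cell held 45.8% of the metformin and 62.5% of the control Tnfrsf4 UMIs, and without the richest cell of each library the ratios were 2.76 for Tnfrsf4, 1.78 for Icos and 1.56 for Tnfrsf18. With mitochondrial UMIs up to 5% the 3 ratios were 1.17 to 1.30, under the threshold, and they were also under it with variable genes from all genes. After thinning, 7.06% of metformin and 6.67% of control cells had a Tnfrsf4 UMI (10.1% and 7.23% before). For Icos these shares were 8.24% and 5.33% (12.4% and 14.5% before), and for Tnfrsf18 18.8% and 17.3% (31.5% and 33.7% before). The 6 T cell markers summed to 352 CPM in metformin and 273 CPM in control, with none at 0, and their part was not tested. The C4b/Ccl12 microglial cluster had 1 of 6 measurable genes past the threshold, Tnfrsf18 (28 and 44 UMIs, ratio 0.620, 0.371 to 1.02), beside 6.85% of all genes. Microglia had 0 of 6 beside 3.8%, the Il1a/Ccl2 microglial cluster 0 of 1 beside 13.1%, and monocytes 0 of 1 beside 17.3%.

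The binding partners of the 9 genes were found in other cells for the most part. Tnf, the ligand of Tnfrsf1b, was highest in the Il1a/Ccl2 microglial cluster, at 843 CPM in metformin and 754 CPM in control, and was at 212 and 294 CPM in the C4b/Ccl12 cluster (991 and 1338 UMIs, ratio 0.721, 0.663 to 0.783). Lta, the other Tnfrsf1b ligand, was highest, among the 14 classes with enough cells, in CD4 conventional T cells and was past the threshold there, at 55.1 CPM in metformin and 102 CPM in control (133 and 410 UMIs, ratio 0.539, 0.440 to 0.657). Tnfsf9, the ligand of Tnfrsf9, stood at 105 CPM in metformin and 109 CPM in control in conventional dendritic cells type 2. Icosl, the ligand of Icos, was at 106 CPM in metformin and 57.3 CPM in control mature dendritic cells (67 and 20 UMIs), at 61.2 CPM in metformin and 78.3 CPM in control B cells and at 60.2 and 62.8 CPM in microglia. Cd40, the receptor of Cd40lg, was at 249.8 CPM in metformin and 249.3 CPM in control mature dendritic cells, and Tnfrsf11a (RANK), the receptor of Tnfsf11, at 71.8 and 58.0 CPM in microglia (ratio 1.24, 1.046 to 1.46).

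Among the receptors that were most abundant in regulatory T cells, transcripts of the ligands were few for Tnfrsf4 and Tnfrsf18. Tnfsf4, the ligand of Tnfrsf4, had 38 UMIs in the whole metformin library and 55 in control, of which CD4 conventional T cells held 19 and 28. Tnfsf18, the ligand of Tnfrsf18, had 9 and 23. Tnfrsf8 (CD30), the receptor of Tnfsf8, had 114 UMIs in metformin and 104 in control, with 42 and 28 of them in regulatory T cells, and the death receptor Tnfrsf10b had 78 and 89. The decoy receptor Tnfrsf11b had 105 and 43 UMIs, of which fibroblasts held 103 and 43.

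**Figure D5:**
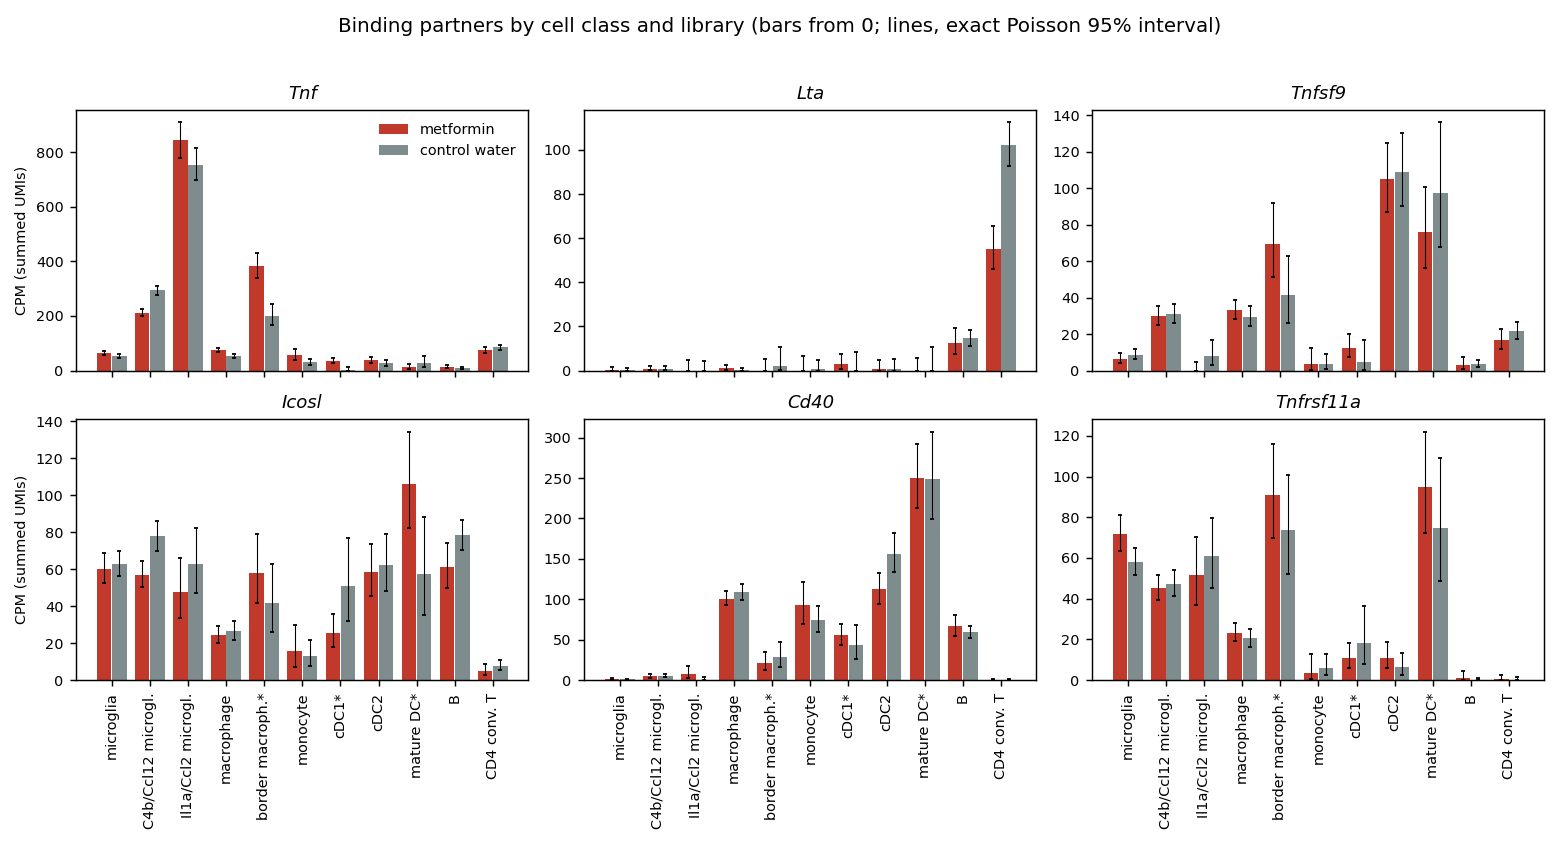
Level of 6 binding partners (summed UMIs as CPM, y axes from 0) in 10 myeloid and B cell classes and CD4 conventional T cells, metformin in red left of control water in grey, with exact Poisson 95% intervals; classes with a star held fewer than 50 cells in 1 library. Tnf peaks in the Il1a/Ccl2 microglial cluster (843 CPM in metformin and 754 CPM in control), Cd40 in mature dendritic cells, and Lta in CD4 conventional T cells (55.1 and 102 CPM).

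The other genes of the pathway were followed in 5 lists of 80 genes, and of their 664 measurable pairs of gene and class 25 were higher in metformin and 38 lower (3.77% and 5.72%), near the 3.54% and 5.06% of all genes. In CD8 T cells, where 3.18% of all genes were lower, 1 of 7 measurable other TNF receptors was lower, Fas (65 and 86 UMIs, ratio 0.659), and 1 of 17 NF-kB genes, Nfkb2, which encodes the p100 subunit (92 and 123 UMIs, ratio 0.652), and 1 of 10 genes of the CD28 family and ICOS axis, Icosl (13 and 30 UMIs). In regulatory T cells, where 5.45% of all genes were lower, 2 of 14 TRAF adaptor genes were lower, Traf3 at a ratio of 0.646 (0.466 to 0.892) and Traf5 at 0.652 (0.466 to 0.908), and no gene of the other 4 lists passed. The NF-kB genes of regulatory T cells had a median log2 ratio of -0.03, beside -0.04 over all genes. Cycling T cells, with 8.03% of all genes lower and 5.62% higher, had 3 of 17 NF-kB genes lower, Relb (ratio 0.527), Nfkbie (0.553) and Nfkb2 (0.561), with a list median of -0.22 beside -0.03 over all genes. Fasl, the ligand of the death receptor Fas, was higher there at 52.2 CPM in metformin and 19.7 CPM in control (94 and 30 UMIs, ratio 2.65), and the NK marker genes, which moved with it, summed to 2296 and 951 CPM. In CD4 conventional T cells, where 6.95% of all genes were lower, 2 of 10 genes of the CD28 family and ICOS axis were lower, Icosl (12 and 31 UMIs) and Maf. They had Maf, a transcription factor downstream of Icos, at 254 CPM in metformin and 435 CPM in control (613 and 1746 UMIs, ratio 0.584, 0.531 to 0.640).

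Likeness of pattern was measured as Pearson's r of log2(CPM + 1) over 28 points, the 14 classes in each of the 2 libraries, which share libraries, depth and lineage, and is a description only. Tnfrsf4 was most like Ctla4 (r = 0.933), Tnfrsf9 like Tigit (0.926), Tnfrsf18 like Cd2 (0.957) and Icos like Sdcbp2 (0.943), with Ctla4 next (0.942). Of the ligands, Cd40lg was most like Rnf19a (0.882), Tnfsf8 like Dtd1 (0.868), Tnfsf10 like Ift27 (0.916) and Tnfsf11 like Mphosph6 (0.892), with Lta next (0.884). Tnfrsf1b was most like Slc16a3 (0.852). Among the 9 genes themselves, Tnfrsf18 and Icos were closest (0.925) and Tnfrsf1b and Tnfsf8 farthest apart (-0.57).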

How the data were processed

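The deposited values are UMI counts, whole numbers per gene and barcode, of 2 libraries of CD45hi cells. Per the labels' protocols they were made with the 10x Genomics 3' v3 kit, and per the submitters' processing notes with Cell Ranger, Seurat and the build mm10; the file headers give matrix software version 3.0.0. Strand handling and annotation are not stated there. Barcodes with under 300 genes or over 10% mitochondrial UMIs (151 and 856 metformin, 92 and 727 control) were left out, as were 36 and 59 doublets marked by Scrublet in scanpy 1.11.5 (0.782% and 1.09%). After scaling each cell to 10000 UMIs and taking logs, 2000 variable genes with 30 principal components and 15 neighbours gave Leiden clusters (leidenalg 0.10.2) at resolution 1.0, and 1.5 for T, NK and innate lymphoid cells, without batch correction. The 9 genes, their partners and the lists were kept out of the variable genes. Of 42 clusters, 5 stayed unnamed; a name needed at least 3 detected markers. The classes are rebuilt and may differ from the study's.

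UMIs were summed per library and class. Levels carry exact Poisson, shares exact Clopper-Pearson and ratios exact conditional binomial intervals (95%), which treat UMIs as independent and cover neither the spread between cells nor between animals. A count of 0 is read against a floor of 3 counts. For shares of cells, UMIs were drawn at random from each cell down to 3821, the lower of the libraries' 10th percentiles over the classes compared, and shallower cells were left out. Alternatives were other minima (1 and 100 UMIs) and a 2-fold threshold, median-of-ratios scaling, equal weight per cell, leaving out the richest cell, mitochondrial UMIs up to 5%, doublets kept, each library clustered alone, variable genes from all genes, lymphoid resolution 2.0 and gates on transcripts. Scripts were tested on simulated data. Named genes are the 9 genes and their partners, up to 4 genes of each list per class past the threshold with the bound farthest from 1, and up to 3 genes most alike to each. Single clusters, Trdc-poor cells and mature dendritic cells were chosen for description with their values known, and the alternative that weights clusters equally was added then. The members and lists were chosen with earlier results of these data known.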

Additional observations from a re-analysis of the deposited data

Results flagged for a closer look

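A gene past the 1.5-fold threshold in opposite directions in different classes, with intervals without 1, was marked for a closer look. None of these differences between classes was tested, since each group was 1 library.

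Tnfrsf4 was higher in metformin in conventional dendritic cells type 2 (ratio 1.92) and lower in Klra1/Klra6 T cells (0.395), cycling T cells (0.620) and macrophages (0.531). Tnfrsf18 was higher in conventional dendritic cells type 2 (1.58) and lower in macrophages (0.606). Cd40lg was higher in the Tcf7 CD4 T cluster (1.57) and lower in cycling T cells (0.449). Cd40lg was also lower in naive T cells (0.638) and Tnfrsf18 in the C4b/Ccl12 microglial cluster (0.620), both with an interval that holds 1. With mitochondrial UMIs up to 5%, Tnfrsf4 and Tnfrsf18 fell under the threshold in conventional dendritic cells type 2 and in macrophages. Cd40lg in the Tcf7 CD4 T cluster did so too, and Tnfrsf4 in cycling T cells did when clusters were weighted equally. Thinned Tnfrsf4 shares of Klra1/Klra6 T cells and macrophages were close to those of B cells and are not read as expression.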

How the results depend on the processing

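Of the 18 pairs of gene and class past the threshold, 18 stayed past it at lymphoid resolution 2.0, 17 with doublets kept, 16 with median-of-ratios scaling, 14 without the richest cell, 14 of 17 with each library clustered alone, 13 with each cell weighing the same, 13 with variable genes from all genes and 10 with mitochondrial UMIs up to 5%. Among those lost at 5% were Tnfrsf4 (1.17), Tnfrsf18 (1.22) and Icos (1.30) in conventional dendritic cells type 2, Cd40lg in the Tcf7 CD4 T cluster (1.14) and Tnfsf10 in NK cells (0.782). Cd40lg in the Tcf7 CD4 T cluster was also lost with variable genes from all genes (1.36). With clusters weighted equally, added after seeing the data, 14 stayed, and Tnfrsf4 in cycling T cells reversed to 1.07.

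The counts of 4 higher and 14 lower pairs became 14 and 30 with no minimum beyond 1 UMI, and 0 and 5 at 2-fold. The lower pairs became 7 at a minimum of 100 UMIs, and the higher ones 0 with variable genes from all genes. With 4 classes gated by transcripts, 0 pairs were higher either way and 4 lower, against 1 by clusters. One was Tnfrsf4 in CD8 T cells, at 0.330 under the gate, against 0.973 at 5% mitochondrial UMIs and 0.668 as reported. Tnfsf8 in gated regulatory T cells had 0 UMIs in metformin and 40 in control, while the ratio by clusters was 1.01, with 1 metformin cell holding 49.0% of the UMIs. The causes of these changes were not tested. No paired analysis was possible because each group is 1 library. Depth limits most the pairs with few UMIs: 40 of 126 were under the minimum.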

Other observations

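Summed over all retained cells, the receptors differed little between the libraries. The ratios of metformin over control water were 1.01 for Tnfrsf4, 0.999 for Tnfrsf18, 1.03 for Icos, 1.04 for Tnfrsf1b and 0.913 for Tnfrsf9. These sums mix lineages that differed. In T, NK and innate lymphoid cells the ratios of Tnfrsf4, Tnfrsf18, Icos and Tnfrsf9 were 0.873, 0.901, 0.917 and 0.832. In myeloid cells they were 2.06, 1.58, 1.57 and 0.879. Classes within the myeloid sum differed too, with a Tnfrsf4 ratio of 1.92 in conventional dendritic cells type 2 and 0.531 in macrophages. Mature dendritic cells (70 metformin and 43 control cells) held 291 of the 658 Tnfrsf4 UMIs of metformin myeloid cells. Of the ligands, Tnfsf10 was at 0.914 over all retained cells. The other 3 were farther from 1, at 0.662 for Tnfsf8, 0.705 for Tnfsf11 and 0.777 for Cd40lg. Among the 14 classes with enough cells, CD4 conventional T cells had the highest level of these 3 ligands. These cells were 206 of 4570 metformin and 399 of 5376 control cells, and within that class the ratios were 0.905, 1.12 and 1.06. Among the small classes, innate lymphoid cells type 2 (8 cells in each library) had 49 Tnfrsf18 UMIs in metformin and 31 in control, and 13 and 8 Cd40lg UMIs. In the metformin library 1 B cell held 94.7% of the 57 Tnfrsf4 UMIs of its class.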
